A study of Mus musculus with 12 samples.

Results

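Corticosteroid signalling was followed through 7 genes in mouse colonic epithelium: the receptor genes Nr3c1 and Nr3c2, the steroid-inactivating enzyme gene Hsd11b2, and Fkbp5, Tsc22d3, Sgk1 and Zbtb16, which respond to the activated receptors. They were taken by symbol from the 23420 genes of each count file, and all 7 were present and passed the filter on low counts, which kept 12863 genes. The libraries were 3 each of confluent colonic monolayers at day 3, day 4 and day 5 and 3 of colonic crypts, the glands of the colon lining. Crypts came from a wild-type (WT) mouse aged 6 to 10 weeks, and the labels name no treatment, transgene or steroid for any group. For monolayers, crypt cells were grown on collagen and then replated on scaffolds whose cross-linking is graded, and whole monolayers were lysed. The transepithelial resistance in the labels was 526 ± 56, 623 ± 15 and 407 ± 53 ohm cm2 on the 3 days in order, with the type of error not named. Neither the composition of the culture medium nor its steroid content is given in the sources used here.

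Corticosteroids act through nuclear receptors that wait in the cytoplasm on a heat shock protein scaffold and, once bound by hormone, move to the nucleus and switch genes on or off. The glucocorticoid receptor, from Nr3c1, is found in nearly all cells. The mineralocorticoid receptor, from Nr3c2, binds aldosterone and glucocorticoids alike, and epithelia that answer to aldosterone, the distal colon among them, express Hsd11b2, whose enzyme inactivates glucocorticoids and so leaves this receptor to aldosterone. Fkbp5, Tsc22d3, Sgk1 and Zbtb16 are widely used as readouts of receptor activity, because their transcription rises within hours of hormone.

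Monolayers had less RNA of 6 of the 7 genes than crypts, relative to all RNA, and slightly more of 1, Nr3c1. The largest difference was in Hsd11b2, which was close to absent from monolayers, followed by Zbtb16, Fkbp5, Sgk1, Nr3c2 and Tsc22d3. Among all tested genes 63.5% were called in the same contrast, 32.8% lower and 30.7% higher, so a call by itself does not set these genes apart. The libraries of the groups did not overlap for 5 of the 7, against 45.9% of all genes. The median change of the 7 was -2.02 on the log2 scale, against -0.026 for all genes. Within the monolayers, Nr3c2, Sgk1 and Hsd11b2 were higher at day 5 than at day 3. Levels are given in CPM, the reads of a gene scaled to the size of its library with TMM factors. Each change is on the log2 scale, with its SE and the adjusted p of edgeR's quasi-likelihood test, with n = 3 libraries per day, n = 9 for all monolayers and n = 3 for crypts. No source says that the replicates were separate mice or separate cultures, and p-values therefore reflect only how far these samples scatter, which may be technical. Fewer cells of a type and less RNA per cell cannot be told apart in bulk RNA.

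**Figure D1:**
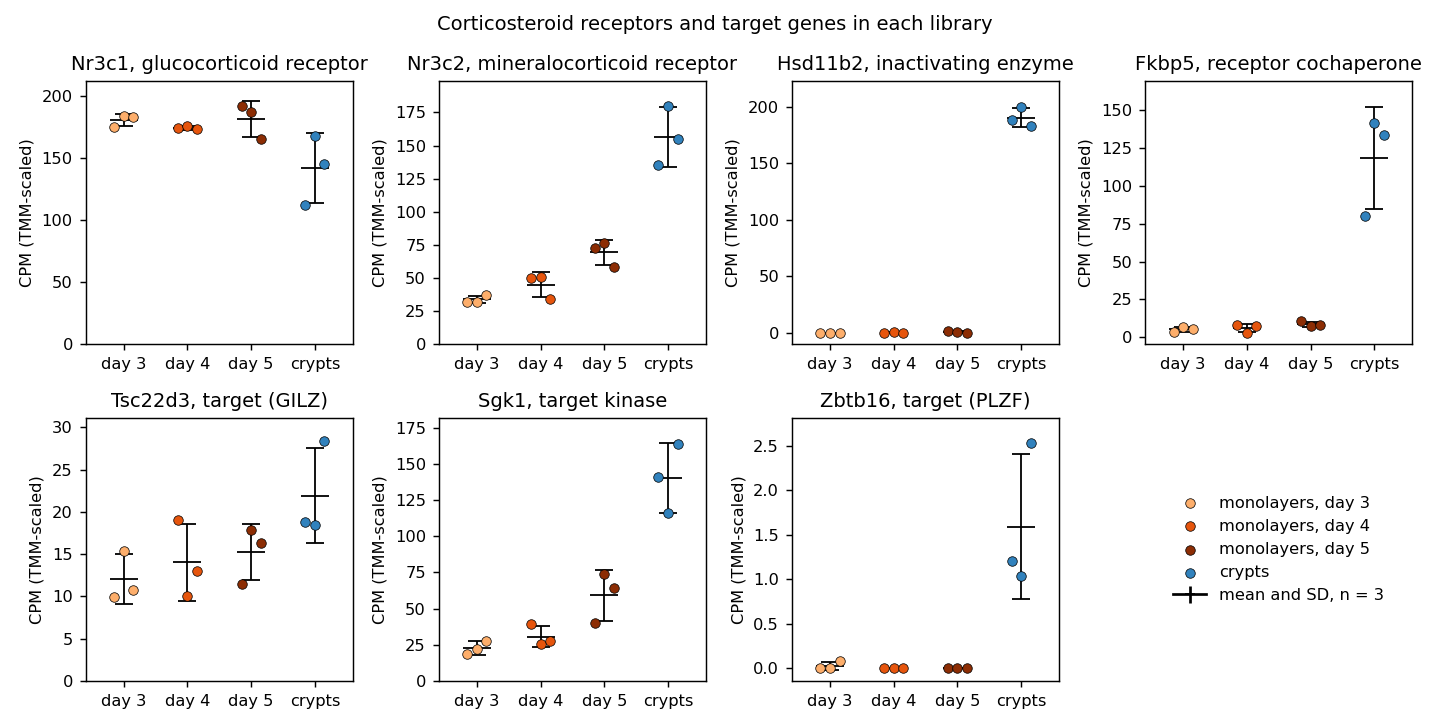
CPM of each of the 7 genes (vertical axes, linear, each on its own scale) in monolayers at day 3, day 4 and day 5 and in crypts. Each point is 1 library and bars give the mean and SD of 3 libraries. Hsd11b2 and Zbtb16 lie at or near 0 in monolayers, Fkbp5 lies at 2.9 to 10.5 CPM in monolayers against 79.9 to 142 in crypts, and Nr3c1 lies at 165 to 192 against 112 to 168.

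Gene counts per library ranged from 4518314 to 14290393, and 3 counts correspond to 0.215 to 0.605 CPM. All 9 epithelial markers had reads in every group, and they summed to 11300 to 15000 CPM in monolayers and 9570 to 10900 CPM in crypts. Keratins supplied most of the monolayer sum, with Krt8, Krt19 and Krt18 at means of 3790, 3010 and 2340 CPM (3170, 2050 and 518 in crypts). These keratins were called higher in monolayers, and Cdx2, Cldn7, Epcam and Vil1 lower, where 30.7% of all genes were higher and 32.8% lower. Cdh1 and Cldn3 were not called. Summed leukocyte markers and summed fibroblast and muscle markers were higher in crypts, though not every gene of these lists. The 12 leukocyte markers summed to 13.1 to 19.1 CPM in monolayers, of which the monocyte and epithelial gene Cd14 supplied 12.3 on average and Cd3g, Cd79b and Cd52 none, against 30.9 to 86 CPM in crypts. Of the 8 tested, 6 were lower in monolayers and 1 higher, the macrophage receptor gene Csf1r, with 211 reads in monolayers against 7 in crypts, a pooled ratio of 7.99 (exact 95% interval 3.81 to 20.1). The 11 fibroblast and muscle markers summed to 1.8 to 5.44 CPM in monolayers, with Dcn and Lum at 0, and to 23.1 to 97.9 CPM in crypts. Of the 6 tested, 5 were lower in monolayers, and the muscle actin gene Acta2, not tested, had 32 reads in monolayers and 0 in crypts. Some of the lower markers, among them Cd3e, Cd3g, Cd52, Col3a1 and Dcn, passed the filter on low counts only through the crypt libraries. Csf1r passed it only through monolayer libraries. For all of these a difference was a condition of being tested. Day 4 replicate 1 held 87 of the 211 Csf1r reads in monolayers (7.49 CPM), a spread that the interval, of counting error only, does not cover. The 6 endothelial markers summed to 0 to 2.02 CPM in monolayers and 1.62 to 3.91 CPM in crypts. The 9 markers of absorptive colonocytes, the surface cells that take up salt and water, summed to 1620 to 1670 CPM at day 3, 1310 to 1920 at day 4, 2800 to 2990 at day 5 and 5920 to 8470 in crypts, with 8 of the 9 lower in monolayers and 0 higher. Car1 supplied most of the monolayer sums, at means of 1470, 1440 and 2370 CPM at day 3, day 4 and day 5 (3200 in crypts). Car4, which passed the filter only through crypts, averaged 0, 0 and 0.356 CPM on these days against 458 in crypts. Reads were found for 12293 genes in day 5 replicate 1, the lowest number of any library, which correlated at 0.946 and 0.949 with the other day 5 libraries, which correlated at 0.981 with each other. The nuclear RNA Malat1 took 5.65 to 5.98% of gene counts at day 3, 7.4 to 8.05% at day 4, 9.3 to 12.2% at day 5 and 2.02 to 2.34% in crypts. The share of reads outside genes also moved with the groups, 38.7 to 42.8% in monolayers and 45.6 to 49% in crypts. The part of cell make-up and RNA quality in the results below was not tested.

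**Figure D2:**
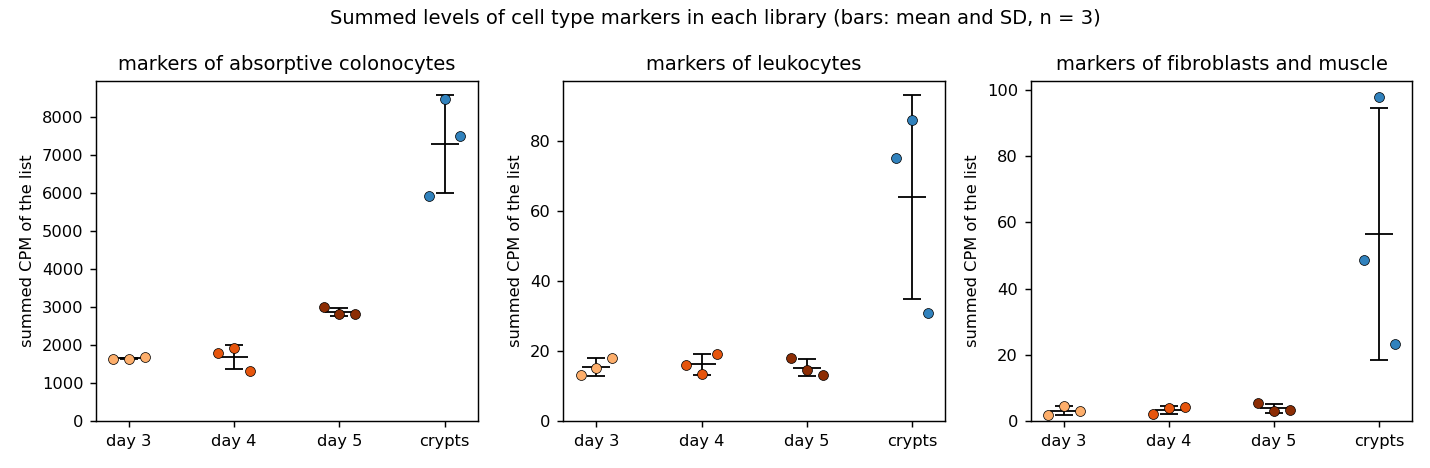
Summed CPM of the absorptive colonocyte, leukocyte, and fibroblast and muscle marker lists (vertical axes) in each library of monolayers at day 3, day 4 and day 5 and of crypts. Points are libraries and bars the mean and SD of 3. Crypts are highest for all 3 lists, and among monolayers the colonocyte sum, mostly of Car1, is highest at day 5, at 2800 to 2990 CPM.

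The receptor genes differed in direction. Nr3c1 stood at 175, 184 and 183 CPM in the day 3 libraries, 174, 176 and 173 on day 4, 192, 187 and 165 on day 5, and 112, 168 and 145 in crypts. All 9 monolayer libraries lay above crypts replicates 1 and 3, and the lowest of them lay just under crypts replicate 2. The difference was small, 179 ± 8.41 CPM in monolayers against 142 ± 28.2 in crypts (SD), a log2 fold change of 0.33 ± 0.095 (edgeR adjusted p = 0.00554). Its call depends on the scaling and its size on 1 crypt library. With library totals in place of TMM, which lowers the median of all genes by 0.18 on the log2 scale, the change was 0.15 (edgeR adjusted p = 0.159). Without crypts replicate 1 the change over all monolayers was 0.20, still called, and the calls at single days ended: the changes at day 3, day 4 and day 5 were then 0.21, 0.16 and 0.22, with edgeR adjusted p of 0.0686, 0.164 and 0.0628, and the day 4 call also ended without any 1 of the day 4 libraries (0.29 to 0.31). No pair of days was called, with changes of -0.051 ± 0.113 for day 4 against day 3, 0.057 ± 0.114 for day 5 against day 4 and 0.0063 ± 0.113 for day 5 against day 3.

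Nr3c2, the mineralocorticoid receptor gene, stood at 32.2, 32.2 and 37.2 CPM at day 3, 50, 50.7 and 33.9 on day 4, 73, 76.5 and 58.6 on day 5, and 135, 180 and 155 in crypts. Every monolayer library lay below every crypt library, and day 5 lay above the other days without overlap. The gene was lower by 2.21 ± 0.156 on the log2 scale at day 3, 1.80 ± 0.154 at day 4 and 1.17 ± 0.152 at day 5 (edgeR adjusted p = 7.3e-10, 1.14e-08 and 2.79e-06). These 3 comparisons share the crypt libraries. The order of levels was crypts, day 5, day 4 and day 3. Day 5 was higher than day 3 by 1.04 ± 0.156 (edgeR adjusted p = 8.8e-05) and higher than day 4 by 0.63 ± 0.154 (edgeR adjusted p = 0.0166), while day 4 against day 3 was not called after adjustment (0.41 ± 0.155, edgeR adjusted p = 0.216, unadjusted p = 0.0162). The day 5 against day 4 call was lost without day 4 replicate 3 (0.46, edgeR adjusted p = 0.0956) or day 5 replicate 2 (0.54, edgeR adjusted p = 0.0923).

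The ratio of reads of both receptor genes within a library does not depend on how libraries are scaled. There were 5.45, 5.71 and 4.91 Nr3c1 reads per Nr3c2 read at day 3, 3.47, 3.48 and 5.1 on day 4, 2.63, 2.45 and 2.81 on day 5, and 0.828, 0.936 and 0.94 in crypts. Every monolayer library lay above every crypt library, and the day 5 libraries lay between crypts and the other days. The ratio averaged 4 ± 1.29 in monolayers against 0.901 ± 0.0634 in crypts (SD, n = 9 and 3). It is a ratio of read counts and is not corrected for transcript length, so it compares groups and not the amounts of both receptors.

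**Figure D3:**
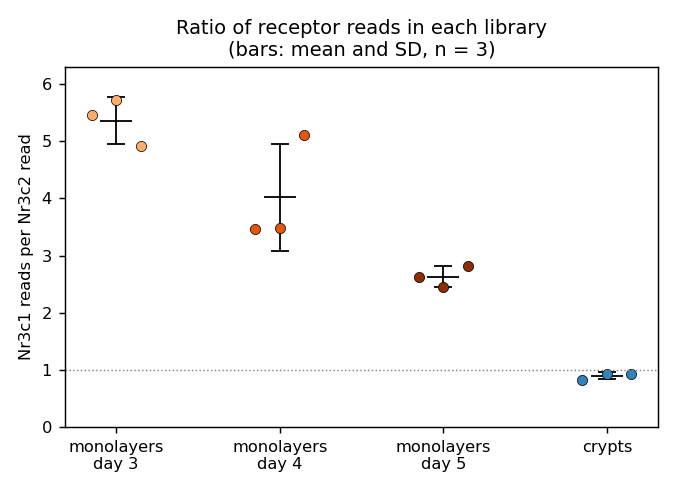
Reads of Nr3c1 per read of Nr3c2 (vertical axis, linear from 0) in each library of monolayers at day 3, day 4 and day 5 and of crypts. Points are libraries, bars the mean and SD of 3, and the dotted line marks equal read counts. Crypts lie at 0.828 to 0.94 and day 5 at 2.45 to 2.81, below day 3 at 4.91 to 5.71.

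Hsd11b2, whose enzyme converts corticosterone, the main glucocorticoid of mice, to an inactive form, had 0, 2 and 1 reads in the day 3 libraries, 0, 7 and 1 on day 4, 9, 12 and 1 on day 5, and 937, 1534 and 2028 in crypts. In CPM the monolayer libraries ranged from 0 to 1.81 and the crypt libraries were at 188, 200 and 183. Crypts were even in this gene and the monolayer libraries were at or near the limit of detection, since 3 counts correspond to up to 0.605 CPM. Pooled over libraries, monolayers were lower by a ratio of 515 (exact 95% interval 366 to 748, counting error only), and the ratio was 2350 at day 3 (803 to 11400), 724 at day 4 (367 to 1680) and 189 at day 5 (124 to 301). The edgeR adjusted p was 2.83e-16 for monolayers against crypts. Day 4 replicate 2 holds 7 of the 8 day 4 reads, and without it the fitted change was -11.54 in place of -9.43 at day 4 and -10.02 in place of -9.32 over all days. Without day 4 replicate 1 the day 4 change was -8.77, and without day 3 replicate 2 the day 3 change was -11.70.

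Day 5 was higher than day 3 in Hsd11b2, with 22 reads against 3 in the pooled libraries, a ratio of 12.5 (exact 95% interval 3.74 to 65) and edgeR adjusted p = 0.00738. The libraries of these days did not overlap in CPM (1.81, 1.08 and 0.173 at day 5, 0, 0.143 and 0.0758 at day 3). However, day 5 replicate 3 had 1 read and the deeper day 3 replicate 2 had 2. Both are under 3 counts, so the order of these libraries rests on their sizes. The fitted change was 3.44 and moved to 4.16 without day 3 replicate 2. Day 5 against day 4 was not called (1.89 ± 0.718, edgeR adjusted p = 0.125). It was called without day 4 replicate 2 (4.00, edgeR adjusted p = 0.0253), without day 5 replicate 3 (2.28, edgeR adjusted p = 0.0459) and with no filter on low counts (1.89, edgeR adjusted p = 0.00916).

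Hsd11b1, whose enzyme works in the opposite direction and regenerates active glucocorticoid, was not tested because of its low counts. It had 35 reads in 9 monolayer libraries and 11 in 3 crypt libraries, a pooled ratio of 1.19 lower in monolayers, with an exact 95% interval of 0.543 to 2.39 that spans an even level.

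Among the target genes, Fkbp5 showed the largest change that rests on ample counts. It encodes a cochaperone that binds the receptor complex and lowers its affinity for hormone, and its own transcription is raised by the receptor. It stood at 3.2, 6.74 and 5.61 CPM at day 3, 7.92, 2.9 and 7.39 on day 4, 10.5, 7.53 and 7.97 on day 5, and 79.9, 142 and 134 in crypts. Every monolayer library lay far below every crypt library, and crypts replicate 1 was lower than the other crypt libraries. Monolayers were lower by 4.20 ± 0.21 on the log2 scale (edgeR adjusted p = 3.26e-12), an 18.4-fold difference. Leaving out any 1 library kept the change between -4.41 and -4.05. Against crypts the change was -4.49 ± 0.316 at day 3, -4.30 ± 0.316 at day 4 and -3.80 ± 0.314 at day 5. No pair of days was called, the largest step being 0.69 ± 0.336 for day 5 against day 3 (edgeR adjusted p = 0.166). With no filter on low counts that step was called (0.68, edgeR adjusted p = 0.0155).

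Sgk1 encodes a kinase induced by both receptors that holds the epithelial sodium channel at the cell surface. It stood at 18.4, 22.2 and 27.6 CPM at day 3, 39.1, 25.6 and 27.4 on day 4, 39.7, 74 and 64.1 on day 5, and 141, 116 and 164 in crypts. Every monolayer library lay below every crypt library, and day 5 lay above the other days, with its replicate 1 only just above day 4 replicate 1. Monolayers were lower than crypts by 2.63 ± 0.217 at day 3, 2.19 ± 0.213 at day 4 and 1.23 ± 0.207 at day 5 (edgeR adjusted p = 6.6e-09, 6.64e-08 and 5.47e-05). Day 5 was higher than day 3 by 1.39 ± 0.215 (edgeR adjusted p = 0.000117), a 2.63-fold difference, and higher than day 4 by 0.96 ± 0.213 (edgeR adjusted p = 0.0079). The step between day 4 and day 5 was not called without day 4 replicate 2 (0.84, edgeR adjusted p = 0.0625), day 4 replicate 3 (0.88, 0.0528) or day 5 replicate 2 (0.76, 0.0698). Day 4 against day 3 was not called (0.43 ± 0.215, edgeR adjusted p = 0.399).

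Tsc22d3 encodes GILZ, a leucine zipper protein that carries part of the anti-inflammatory action of glucocorticoids. It stood at 9.89, 15.4 and 10.8 CPM at day 3, 19, 10.1 and 13 on day 4, 11.5, 17.9 and 16.3 on day 5, and 18.8, 18.5 and 28.4 in crypts. Day 4 replicate 1 lay above crypts replicates 1 and 2, and all other monolayer libraries lay below all crypt libraries. The change was the smallest of the decreases, -0.68 ± 0.216 (edgeR adjusted p = 0.0105), and it was not called without crypts replicate 3 (-0.44, edgeR adjusted p = 0.146). By day it was called at day 3 (-0.87 ± 0.273, edgeR adjusted p = 0.0112), and not at day 4 (-0.65 ± 0.273, 0.0501) or day 5 (-0.52 ± 0.276, 0.116). The day 4 value was called under several alternatives, at the extreme without day 4 replicate 1 (-0.93, edgeR adjusted p = 0.0146), and also without day 5 replicate 1, crypts replicate 1 or crypts replicate 2 (-0.64, -0.74 and -0.76). It was also called with DESeq2 size factors (-0.68, edgeR adjusted p = 0.0401), library totals (-0.83, 0.016) and no filter (-0.64, 0.031), and by the DESeq2 Wald test (-0.68, adjusted p = 0.036). With library totals the day 5 value was called too (-0.72, edgeR adjusted p = 0.035). The day 3 call was lost without day 3 replicate 1 (-0.745, edgeR adjusted p = 0.0555), day 3 replicate 3 (-0.79, 0.0505) or crypts replicate 3 (-0.63, 0.0831). No pair of days was called.

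Zbtb16 encodes PLZF, a zinc finger repressor induced by steroids and also known as a defining factor of innate-like lymphocytes. It had 0, 0 and 1 reads at day 3, no read in any day 4 or day 5 library, and 6, 8 and 28 reads in crypts. In crypts the level was 1.2, 1.04 and 2.53 CPM. The gene was therefore low in crypts and at 1 read in all monolayers, a pooled ratio of 159 (exact 95% interval 26.9 to 6410, lower in monolayers, edgeR adjusted p = 5.55e-05). Zbtb16 and Hsd11b2 passed the filter on low counts only through the crypt libraries, so that a difference was a condition of their being tested, and the counts of members called or not overlapping against crypts include both. At day 4 Zbtb16 was at least 18-fold lower and at day 5 at least 12.9-fold lower, taking 3 reads over the whole group as the floor. The day 3 value, a ratio of 65.7 (11.2 to 2660), rests on 1 read, and without that library, day 3 replicate 3, the fitted change was -6.88 in place of -5.36. Crypts replicate 3, the deepest crypt library, held most of the reads and had the highest level, 2.53 CPM. Its leukocyte sum was 30.9 CPM, against 75.1 and 86 in replicates 1 and 2. Its fibroblast and muscle sum was 23.1 CPM, against 48.7 and 97.9. The part of these cell types in the Zbtb16 reads was not tested.

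**Figure D4:**
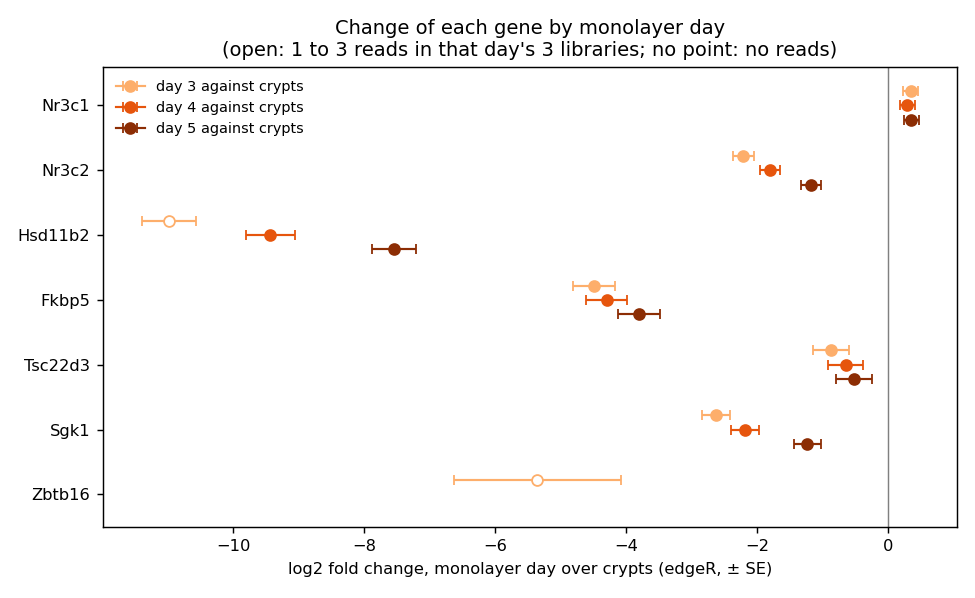
Log2 fold change over crypts (horizontal axis, edgeR fit ± SE) of each gene at day 3, day 4 and day 5. Open points rest on 1 to 3 reads and Zbtb16 has no point where it had no read. Nr3c2, Hsd11b2 and Sgk1 lie nearer to the crypt level at day 5 than at day 3, while Nr3c1 lies at 0.29 to 0.35 at all 3 days.

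Set against the background of all genes, the members' counts read as follows. At day 3 against crypts edgeR called 6 of the 7 lower and 1 higher (56.3% of all genes called, 27.9% lower and 28.4% higher), and 7 did not overlap (64.4% of all genes). At day 4 it called 5 lower and 1 higher (57.1%, with 28.4% lower and 28.7% higher), and 6 did not overlap (62.3%). At day 5 it also called 5 lower and 1 higher (57.3%, with 28.9% lower and 28.4% higher), and 6 did not overlap (59.1%). Between days, 3 of the 7 were called higher at day 5 than at day 3 and 0 lower. Of all genes 9.9% were higher and 10.5% lower (20.4% in all). The libraries did not overlap for 4 of the 7 (40.8% of all genes), among them Hsd11b2, where libraries of 1 and 2 reads decide it. At day 5 against day 4, 2 of the 7 were called higher, where 3.36% of all genes were higher and 4.2% lower (7.56% in all), and 2 did not overlap (27.1%). At day 4 against day 3, 0 of the 7 were called, where 1.59% of all genes were higher and 1.17% lower (2.77% in all), and 0 did not overlap (27.1%). At an unadjusted p under 0.05 that last count was 1, and with the DESeq2 Wald test it was 0. Absorptive colonocyte markers moved with the day 5 levels: 8 of the 9 were higher at day 5 than at day 3 and 0 lower. Of the 8, Ms4a18 reached the filter on low counts only with the day 5 libraries, so that a difference was a condition of its being tested. Car4 had 6 reads at day 5 against 0 at day 3. Krt20, a keratin of surface cells, averaged 175 CPM at day 5 against 41.3 at day 3. The part of colonocytes in the higher Nr3c2, Sgk1 and Hsd11b2 levels was not tested.

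Receptors bind DNA at a palindrome of hexamers, AGAACA then 3 bases of any kind then TGTTCT, which reads the same on both strands. It was searched in the promoter windows of RefSeq (build GRCm38.p6, 250 bases before to 50 after each annotated start), which held 4 of the 7 genes (Nr3c2, Fkbp5, Tsc22d3 and Sgk1) with 11 windows. The full element was in 1 of these windows, at an Sgk1 start, and in 3 of 32851 windows of all genes (0.00913%). A hexamer on either strand (AGAACA, or TGTTCT on the other strand) was in 19% of all windows. Each full element also counts as 2 hexamers. Among the members a hexamer was in 3 of 6 Sgk1 windows, 1 of 3 Tsc22d3 windows, and 0 of the single windows of Fkbp5 and Nr3c2. A match describes letters, not binding. A window without a match does not show that a gene lacks elements elsewhere, or inexact ones. No link of matches to the size of the changes was tested. The sequences given are the Sgk1 window with the full element, the Tsc22d3 window with a hexamer and the Fkbp5 window with none. They are in lower case with hexamers in capitals. The Sgk1 window is chr10:21993640-21993939 on the plus strand, the Tsc22d3 window chrX:140600473-140600772 and the Fkbp5 window chr17:28486100-28486399, both on the minus strand. The Sgk1 element, chr10:21993701-21993715, lies inside this window. It ends 175 bases before the annotated Sgk1 start that the window was drawn around and 951 bases before the next annotated Sgk1 start.
Sgk1: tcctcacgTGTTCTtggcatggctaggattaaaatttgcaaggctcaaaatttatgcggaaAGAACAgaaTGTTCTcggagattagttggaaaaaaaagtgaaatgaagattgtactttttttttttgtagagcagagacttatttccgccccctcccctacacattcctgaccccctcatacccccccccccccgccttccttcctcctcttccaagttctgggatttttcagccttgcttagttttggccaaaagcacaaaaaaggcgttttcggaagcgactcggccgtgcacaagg
Tsc22d3: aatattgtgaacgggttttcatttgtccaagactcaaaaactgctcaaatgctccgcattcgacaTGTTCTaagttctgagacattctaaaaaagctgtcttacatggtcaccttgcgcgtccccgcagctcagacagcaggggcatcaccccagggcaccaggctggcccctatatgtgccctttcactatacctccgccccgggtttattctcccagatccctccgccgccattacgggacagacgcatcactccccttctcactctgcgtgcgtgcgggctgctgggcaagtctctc
Fkbp5: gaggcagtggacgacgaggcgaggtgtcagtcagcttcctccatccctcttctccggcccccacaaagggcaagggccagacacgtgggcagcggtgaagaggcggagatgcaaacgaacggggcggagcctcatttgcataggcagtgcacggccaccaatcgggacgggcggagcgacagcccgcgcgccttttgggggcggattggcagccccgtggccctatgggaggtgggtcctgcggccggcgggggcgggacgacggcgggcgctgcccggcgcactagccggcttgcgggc

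Other genes known to respond to the glucocorticoid receptor were called in both directions. Of 21 listed, 20 were tested and 8 were higher, 8 lower and 4 not called in monolayers against crypts, where 30.7% of all genes were higher and 32.8% lower. Their median change was 0.053, against -0.026 for all genes. Among the lower genes, Rasd1 and Rgs2 passed the filter on low counts only through the crypt libraries. For them a difference was a condition of being tested. The highest changes were in Dusp1, a phosphatase gene that ends MAP kinase signalling (a mean of 110 ± 19.1 CPM in monolayers and 10.7 ± 1.12 CPM in crypts, 3.36 ± 0.127, edgeR adjusted p = 5.9e-14), and Anxa1, of an anti-inflammatory phospholipid-binding protein (944 ± 217 against 108 ± 13.6 CPM, 3.10 ± 0.104). Ddit4, of a stress-induced inhibitor of mTOR, rose by 2.41 ± 0.136 and the transcriptional repressor gene Bcl6 by 2.03 ± 0.22. The clock gene Per1, a direct target in many tissues, averaged 37.7 ± 9.38 CPM in monolayers and 18.2 ± 5.3 CPM in crypts (1.03 ± 0.174, edgeR adjusted p = 4.56e-05). The lowest were Rasd1, a small G protein gene named for its induction by dexamethasone (35 reads against 372, lower by a ratio of 40.1, 28.3 to 58.5), and Rgs2, a brake on G protein signalling (30 reads against 282, a ratio of 35.5, 24.3 to 53.6). Pdk4, which spares glucose by blocking pyruvate oxidation, fell by 3.98 ± 0.486 (or 3.18 without crypts replicate 2), and Glul, which encodes glutamine synthetase, by 2.13 ± 0.092. Klf15 was not tested. At day 5 against day 3, 6 of the 20 were higher and 5 lower, where 9.9% and 10.5% of all genes were. Per1 was among the higher, by 0.74 ± 0.194 (edgeR adjusted p = 0.01).

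Among genes of sodium and potassium handling that respond to aldosterone, lower calls outnumbered higher ones. Of 14 tested, 10 were lower, 3 higher and 1 not called in monolayers against crypts (median -0.977, against -0.026 for all genes, of which 32.8% were lower and 30.7% higher). Among the lower genes, Scnn1b, Scnn1g and Usp2 passed the filter on low counts only through the crypt libraries. For them a difference was a condition of being tested, and the count of lower genes includes them. The sodium channel subunits did not move together. Scnn1a averaged 132 ± 25 CPM in monolayers and 126 ± 9.77 CPM in crypts (0.042 ± 0.0758, edgeR adjusted p = 0.65, and -0.14 with library totals, also not called). Scnn1b had 11 reads in monolayers against 176 in crypts, lower by a ratio of 60.4 (exact 95% interval 32.9 to 123; adjusted p = 1.04e-07 by edgeR). Scnn1g had 9 reads against 59, lower by a ratio of 24.7 (interval 12.2 to 56.8; adjusted p = 5.6e-05 by edgeR), and its fitted change of -6.23 was -5.61 without crypts replicate 2. Scnn1b had 9, 2 and 0 reads at day 3, day 4 and day 5, and Scnn1g had 9, 0 and 0. In the day 5 libraries 3 counts correspond to 0.605, 0.269 and 0.52 CPM, so low levels there can be missed. Scnn1a was highest at day 5, at 164 ± 6.92 CPM. Slc9a3, the sodium-hydrogen exchanger of surface cells, averaged 5.59 ± 6.75 CPM in monolayers and 140 ± 35.3 CPM in crypts (-5.77 ± 0.169, edgeR adjusted p = 1.85e-15). Kcnma1, a potassium channel gene of colonic secretion, fell by 5.22 ± 0.268, and Usp2, a deubiquitinase gene induced by aldosterone, was lower by a ratio of 39.9 (28.2 to 58.2), with a fitted change of -5.67 that was -6.50 without day 4 replicate 1. Higher in monolayers were Ndrg2 (199 ± 25.4 against 60.8 ± 9.95 CPM, 1.72 ± 0.12), the kinase gene Wnk1 (611 ± 27.4 against 240 ± 12.8 CPM, 1.35 ± 0.0695) and Fxyd4, a corticosteroid-induced regulator of the sodium pump (0.79 ± 0.331, edgeR adjusted p = 0.045). The Fxyd4 call was lost with library totals (0.60, edgeR adjusted p = 0.124), with DESeq2 size factors and without any 1 of 8 libraries, at the extreme 0.40 without crypts replicate 2.

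Between days 5 of these 14 genes were higher at day 5 than at day 3 and 1 lower, against 9.9% and 10.5% of all genes. Slc9a3 averaged 14.4 ± 2.35 CPM at day 5 and 0.647 ± 0.233 at day 3 (4.38 ± 0.316, edgeR adjusted p = 2.96e-08). The sodium pump subunit gene Atp1b1 was higher by 1.51 ± 0.103, Scnn1a by 0.55 ± 0.0921 (edgeR adjusted p = 0.000257) and Fxyd4 by 1.41 ± 0.378 (edgeR adjusted p = 0.0119). Prss8, a protease gene that activates the sodium channel, was lower by 0.63 ± 0.197 (edgeR adjusted p = 0.0289). Atp1b1 and Prss8 fall outside the rule for named genes and were named after their values were seen, as was Krt20.

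Among chaperones and coregulators of the receptors, higher calls outnumbered lower ones. Of 14 tested, 9 were higher, 3 lower and 2 not called in monolayers against crypts (median 0.362, against -0.026 for all genes, of which 30.7% were higher and 32.8% lower). Hsp90aa1, which holds the receptor ready for hormone, averaged 656 ± 76.1 CPM in monolayers and 316 ± 33.4 in crypts (1.05 ± 0.0826), and Ptges3, the p23 cochaperone gene, 90.9 ± 6.55 against 40.2 ± 6.68 CPM (1.16 ± 0.106). Hspa8, of the constitutive heat shock cognate protein, rose by 1.14 ± 0.0818. Fkbp4, which competes with the product of Fkbp5 on the receptor complex, was lower by 0.29 ± 0.0858 (194 ± 34.3 against 233 ± 3.91 CPM, edgeR adjusted p = 0.00738). Its change was thus far smaller than the -4.20 of Fkbp5. The coactivator gene Ncoa1 fell by 0.70 ± 0.104 and the corepressor gene Nrip1 by 0.24 ± 0.0778, a call that ended without crypts replicate 1 (-0.20, edgeR adjusted p = 0.0556) or crypts replicate 3 (-0.21, 0.0573). At day 5 against day 3, 2 of the 14 were higher and 3 lower, where 9.9% and 10.5% of all genes were.

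Of 12 genes of corticosteroid synthesis and metabolism, 5 were tested, with 1 higher and 2 lower in monolayers against crypts, where 63.5% of all genes were called. Nr5a2, which drives local steroid synthesis in the intestine, averaged 2.38 ± 1.3 CPM in monolayers and 108 ± 6.15 in crypts (-5.47 ± 0.27, edgeR adjusted p = 2.72e-12). Abcb1a, an efflux pump gene whose product exports glucocorticoids, fell by 1.16 ± 0.102, and was higher at day 5 than at day 3 by 1.11 ± 0.134. Srd5a1, a steroid reductase gene, rose by 1.54 ± 0.176.

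**Figure D5:**
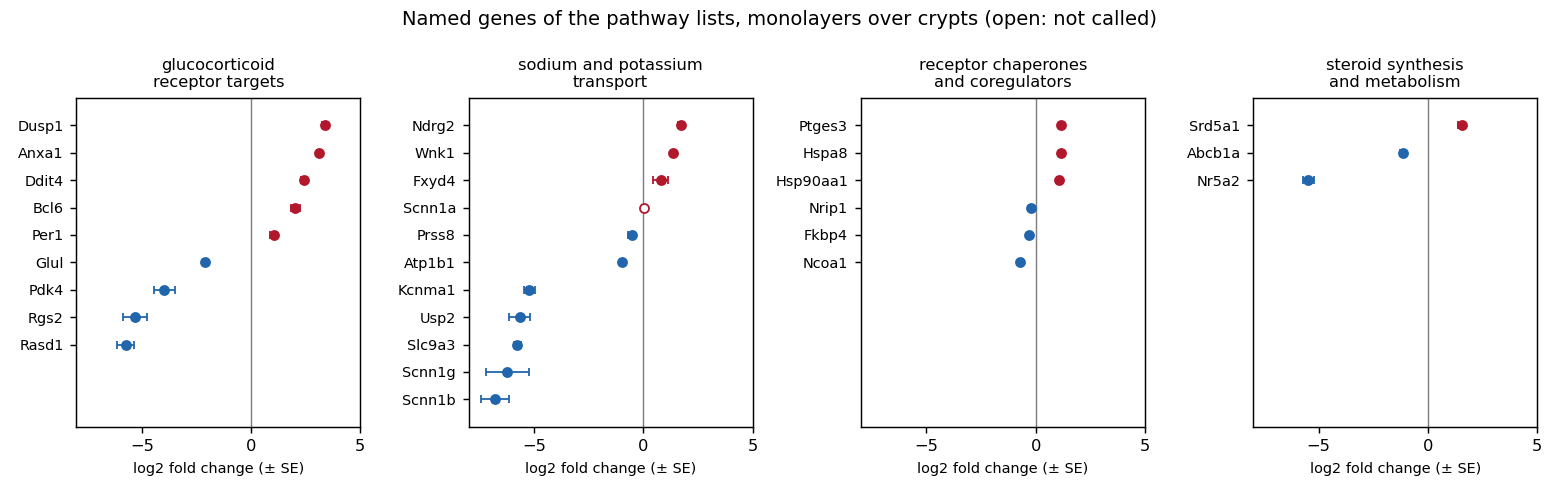
Log2 fold change of monolayers over crypts (horizontal axes, edgeR fit ± SE) for the genes named here from the glucocorticoid target, sodium and potassium transport, chaperone and coregulator, and steroid synthesis lists, each sorted by its change. Filled points were called and the open point, Scnn1a, was not. The values run from 3.36 for Dusp1 to -5.75 for Rasd1 in the first list, while the chaperones and coregulators lie between 1.16 for Ptges3 and -0.70 for Ncoa1.

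The genes whose profiles over the 12 libraries lay closest to each member were found by the root mean square difference of log2 CPM, each profile centred on its own mean. Nr3c1 was closest to Ywhah (0.0586) and Cpsf7 (0.0751), and Nr3c2 to Cds1 (0.176) and Ahcyl2 (0.185). Sgk1 was closest to Ccl28 (0.228) and Wnk2 (0.257), of which Ccl28 averaged 25.5, 34.8 and 64.1 CPM at day 3, day 4 and day 5 and 146 in crypts. Hsd11b2 was closest to Guca2a (0.683), the guanylin gene of surface colonocytes, which averaged 1.28, 1.6 and 3.26 CPM on the 3 days and 1220 in crypts, and to Btnl1 (0.753). Fkbp5 was closest to Fgd1 (0.324) and Selm (0.41), and Tsc22d3 to Rnft1 (0.203) and Depdc5 (0.225). Zbtb16 was closest to Slc6a20a (0.247) and Bmx (0.273), which had no read in monolayers. A prior count of 2 was added before the log, so genes with few or no reads in monolayers take similar values there. This applies to Zbtb16, Slc6a20a, Bmx, Hsd11b2, Btnl1 (0.118 CPM in monolayers) and Fgd1 (0.285 CPM). All the profiles share libraries and the contrast of monolayers with crypts, so the values are a description. That contrast was smallest for Nr3c1, Ywhah and Cpsf7, with log2 changes of 0.33, 0.384 and 0.251.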

How the data were processed

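RNA was sequenced from 12 libraries, 9 of monolayers and 3 of crypts. Reads were processed with CASAVA 1.9, TopHat2 and HTSeq per the submitters' processing notes, which name the builds mm9 and mm10 without their roles. Each deposited file holds the authors' raw read counts for 23420 genes and 5 summary lines, which were kept out of library sizes: 38.7 to 42.8% of reads in monolayers and 45.6 to 49% in crypts met no gene, 14.2 to 19.2% were not unique, and 0.154 to 0.207% were ambiguous. No source used here says whether counting took strand into account, so reads of overlapping and antisense genes cannot be told apart.

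Counts were filtered with filterByExpr (minimum count 10, 12863 genes), scaled by TMM and fitted in edgeR 4.0.16 (R 4.3.3) as 1 quasi-likelihood model of 4 groups with 7 contrasts. Calls are Benjamini-Hochberg adjusted p-values under 0.05 over all genes. SEs are the change over the root of F. Ratios of pooled counts carry exact 95% intervals that cover counting error only, with a floor of 3 counts. Alternatives were other scalings, DESeq2 1.42.0, no filter, a replicate block, fewer groups and leaving out each library. The fit was also run on simulated data in which few genes changed, in equal numbers up and down. Far more genes were called in the real data, so that run does not check the scaling. No 2 replicates differed by as little as sampling noise.

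Named genes were the 7 members, Per1, Hsd11b1 and the sodium channel genes, and from each of 4 lists up to 4 called genes each way with the largest change and a mean of at least 1 CPM, plus the 2 genes most like each member. A gene that the rule names is not reported here. The members and lists were chosen with earlier results of these data known.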

Additional observations from a re-analysis of the deposited data

Results flagged for a closer look

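In 5 cases the change from crypts differed between monolayer days by a test of the difference itself. Nr3c2 was higher at day 5 than at day 4 by 0.63 on the log2 scale and than at day 3 by 1.04, and all 3 day 5 libraries lay above all libraries of the other days. Sgk1 was higher at day 5 than at day 4 by 0.96 and than at day 3 by 1.39, again in 3 of 3 libraries. Hsd11b2 was higher at day 5 than at day 3 by 3.44, on 22 reads against 3. The steps of Nr3c2 and Sgk1 from day 4 to day 5 are each lost without single libraries, as given with each gene. Summed colonocyte markers moved the same way, 2800 to 2990 CPM at day 5, against 1310 to 1920 at day 4 and 1620 to 1670 at day 3. Most of each sum was Car1, at means of 2370, 1440 and 1470 CPM on these days. The part of these cells in the 5 differences was not tested.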

How the results depend on the processing

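The decreases of Nr3c2, Hsd11b2, Fkbp5, Sgk1 and Zbtb16 in monolayers against crypts kept their direction and call under all alternatives run. The Nr3c1 increase was 0.148 with library totals and not called, and the Tsc22d3 change ranged from -0.79 to -0.436 without 1 library, with the call lost at -0.436, without crypts replicate 3. With library totals Scnn1a turned to -0.142. Changes near 0 between days turned sign: Nr3c1 at day 5 against day 3 was -0.03 with library totals, -0.0013 with no filter, and -0.039 to 0.068 without 1 library. Without 1 library, day 4 against day 3 ranged from -0.559 to 2.277 for Hsd11b2, -0.077 to 0.54 for Fkbp5 and -0.07 to 0.443 for Tsc22d3, and day 5 against day 4 from -0.063 to 0.418 for Tsc22d3. None of these changes between days was called. The count of members called higher against crypts (Nr3c1 alone) was 0 with library totals in all monolayers and at each day, 0 at day 4 with DESeq2 size factors, and 0 at day 4 and day 5 with only the compared groups fitted. It was 0 to 1 at each day without 1 library. At day 5 against day 4, 0 to 3 members were called higher without 1 library, 0 without day 4 replicate 3. Over all genes, day 4 against day 3 gave 205 higher and 151 lower. These were 365 and 266 with the DESeq2 Wald test, 361 and 275 with no filter, 583 and 561 with only those days fitted, and 50 to 284 and 44 to 216 without 1 library, the lowest without day 4 replicate 1. Without 1 library, day 5 against day 4 gave 210 to 550 higher and 318 to 667 lower (main 432 and 540), lowest without day 4 replicates 3 and 2, and day 5 against day 3 gave 840 to 1399 higher (main 1273), lowest without day 3 replicate 1. The cause was not tested. Fitting only the compared groups gives no separate value for all monolayers against crypts. Same-numbered libraries did not deviate together (18 correlations from -0.0336 to 0.0585, 0 over 0.1). With the replicate block, 3896 genes were higher and 4100 lower in monolayers against crypts (main 3943 and 4220), and the block moved no count of calls by over 1.5 times and changed no call of a member. Depth limits Hsd11b2 and Zbtb16 in monolayers, where 3 counts are 0.215 to 0.605 CPM.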

Other observations

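Some genes of steroid synthesis and metabolism did not pass the filter on low counts. Akr1c18, which inactivates progesterone, had 0, 0 and 2 reads in the day 3 libraries, 0, 5 and 0 in those of day 4, 0, 0 and 1 in those of day 5, and 4, 103 and 45 in crypts. Pooled, these are 8 reads in monolayers against 152 in crypts, lower by a ratio of 71.7 (exact 95% interval 35.5 to 169, counting error only), with the crypt libraries far apart. Cyp11a1, which starts steroid synthesis from cholesterol, had 0, 13 and 6 reads in the day 3 libraries, 8, 1 and 0 in those of day 4, 4 in each of day 5, and 0, 15 and 0 in crypts, a pooled ratio of 1.42 lower in monolayers (0.726 to 2.62). Cyp11b1 and Cyp11b2, which make corticosterone and aldosterone, had 1 read each, both at day 3.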
